A study of Mus musculus with 4 samples.

Results

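The thalamus passes sensory, motor and limbic signals on to the cortex through glutamatergic relay neurons, most of which release glutamate with the vesicular transporter Slc17a6 and depend on the transcription factor Tcf7l2 for their identity. Relay neurons switch between tonic firing and bursts that rest on T-type calcium and HCN channels. The GABAergic reticular nucleus lies along the lateral border of the thalamus and inhibits the relay nuclei, and the habenula lies above its medial part. Thalamus spots were selected on the counts of 5 genes: Prkcd, Tcf7l2, Tnnt1, Synpo2 and Rora. In each section, spots with at least 500 unique molecular identifiers (UMIs, 1 for each transcript that was captured) were scored by the summed UMIs of these genes per 10000 UMIs, and the 8% of spots with the highest score and at least 3 UMIs of the genes were taken. This gave 773 of 9676 spots, out of 10940 spots over tissue. The rule can also be read in the other order, with the minimum of 3 UMIs applied after the 8% are taken, which gives 184, 223, 120 and 171 spots (trained 1 and 2, then untrained 1 and 2).

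The study compared mice trained in active place avoidance, a task in which a mouse on a rotating arena learns to keep out of a shock zone, with untrained mice that were placed in the same arena without shock. Spatial gene expression was read with Visium arrays, 3 days after the retention test, from 2 trained and 2 untrained mice, with 1 coronal section through the dorsal hippocampus per mouse. All 4 were adult male ArcCreERT2::eYFPflx mice on a C57BL/6 background, aged 3 to 4 months, and all received 4-hydroxytamoxifen under isoflurane. In these mice a Cre recombinase that tamoxifen activates is expressed from the Arc promoter and switches on eYFP, so that cells with active Arc around the injection stay tagged. The labels give the tissue as hippocampus, but the sections also held cortex, thalamus and hypothalamus. The section of 1 mouse was the replicate, and a spot holds several cells.

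Depth differed between the sections. Trained 1 and 2 had 7119995 and 10330015 UMIs, and untrained 1 and 2 had 3560294 and 6581748. Thalamus spots numbered 208 and 226 in trained mice, with 521959 and 1069501 UMIs in sum. Untrained mice had 145 and 194 of them, with 263483 and 474653 UMIs. A thalamus spot had a median of 2079.5, 4147.5, 1510.0 and 1833 UMIs (trained 1 and 2, then untrained 1 and 2, the order of all sets of 4 values), against 2156, 2623, 1335.5 and 2058 UMIs in the other spots. An exact two-sided permutation of 2 against 2 sections has no p below 0.333, the value for any gene whose conditions do not overlap.

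Sections stood apart in several respects. In thalamus spots, trained 2 had the deepest spots and the lowest share of mitochondrially encoded UMIs, at 6.19% against 12.7%, 12.3% and 12.1% in trained 1, untrained 1 and untrained 2. Its level of the noncoding RNA Bc1 was 3568 CPM (UMIs of the gene per 1000000 UMIs), against 15105, 27508 and 19964 CPM in those sections. The summed level of the choroid plexus list was 337 CPM in trained 2, and 1954, 1514 and 1964 CPM in the others. Untrained 1 was the shallowest section. It also had 1 thalamus spot with a UMI of Gt(ROSA)26Sor, the transcript of the locus at which reporters such as eYFP are inserted, or 0.690% of spots (exact 95% interval 0.0175% to 3.78%), against 28.4%, 41.6% and 42.3% in trained 1, trained 2 and untrained 2. The genotype and label of untrained 1 were taken as stated and were not tested, so whether they are right is not known here. Comparisons are therefore also given with each section left out, apart from that of the column difference between trained and untrained mice. For conditions such a fit is weak, as 1 arm is then a single section and the spread comes from the other condition alone.

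Because the share of spots was fixed, the score at the edge of the selection differed between sections. The lowest score inside was 17.2, 29.8, 19.6 and 18.8, and the highest score outside among spots with at least 3 UMIs of the genes was 17.0, 29.8, 19.5 and 18.3 UMIs per 10000. The edge was thus highest in trained 2. The minimum of 3 UMIs left out 37, 3, 32 and 33 spots whose score was above the lowest inside, with scores of up to 40.0, 35.8, 37.2 and 37.2. The median score was 30.4, 38.5, 31.1 and 33.5 inside, and 0, 1.15, 0 and 0 in the other spots. A thalamus spot rested on a median of 6, 15, 5 and 6 UMIs of the 5 genes, and 32, 3, 33 and 32 spots held the minimum of 3.

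The 5 genes that chose the spots are described without a test. Prkcd, which encodes protein kinase C delta, stood at 1489, 2368, 1696.5 and 1809.7 CPM in thalamus spots, 18.5, 13.5, 15.1 and 22.8 times its level in the other spots. Tcf7l2, a partner of β-catenin in Wnt signaling, stood at 506, 495, 509 and 544 CPM, or 10.0, 5.51, 8.34 and 11.3 times the other spots. Rora, a nuclear receptor that binds DNA as a monomer, stood at 569, 668, 493 and 558 CPM, or 8.01, 7.17, 7.61 and 9.12 times the other spots. Prkcd was found in nearly every thalamus spot (95.7%, 98.2%, 93.1% and 93.3%), Rora in 55.9% to 88.9% of them and Tcf7l2 in 55.2% to 81.0%. Tnnt1, which encodes the troponin T of slow muscle fibers, stood at 182, 184, 262 and 269.7 CPM, 15.0, 13.4, 17.1 and 20.8 times the other spots. Synpo2, an actin-binding protein related to synaptopodin, stood at 257, 311, 235 and 274 CPM, 13.0, 7.89, 8.01 and 14.9 times the other spots. Both were found in fewer spots, Tnnt1 in 33.7% to 44.2% and Synpo2 in 32.4% to 72.6%.

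Each gene was also followed in spots chosen by the other 4 genes alone. Prkcd then stood 6.40, 7.98, 5.46 and 9.90 times above its level in the remaining spots, in 206, 226, 86 and 160 chosen spots. Tcf7l2 stood 6.83, 3.94, 4.37 and 8.07 times above them, and Tnnt1 10.7, 10.1, 6.92 and 13.8 times. Synpo2 stood 10.3, 6.52, 5.50 and 11.5 times above, and Rora 5.47, 6.18, 5.06 and 7.12 times. Each of the 5 genes was thus high where the other 4 were high, in every section.

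**Figure D1:**
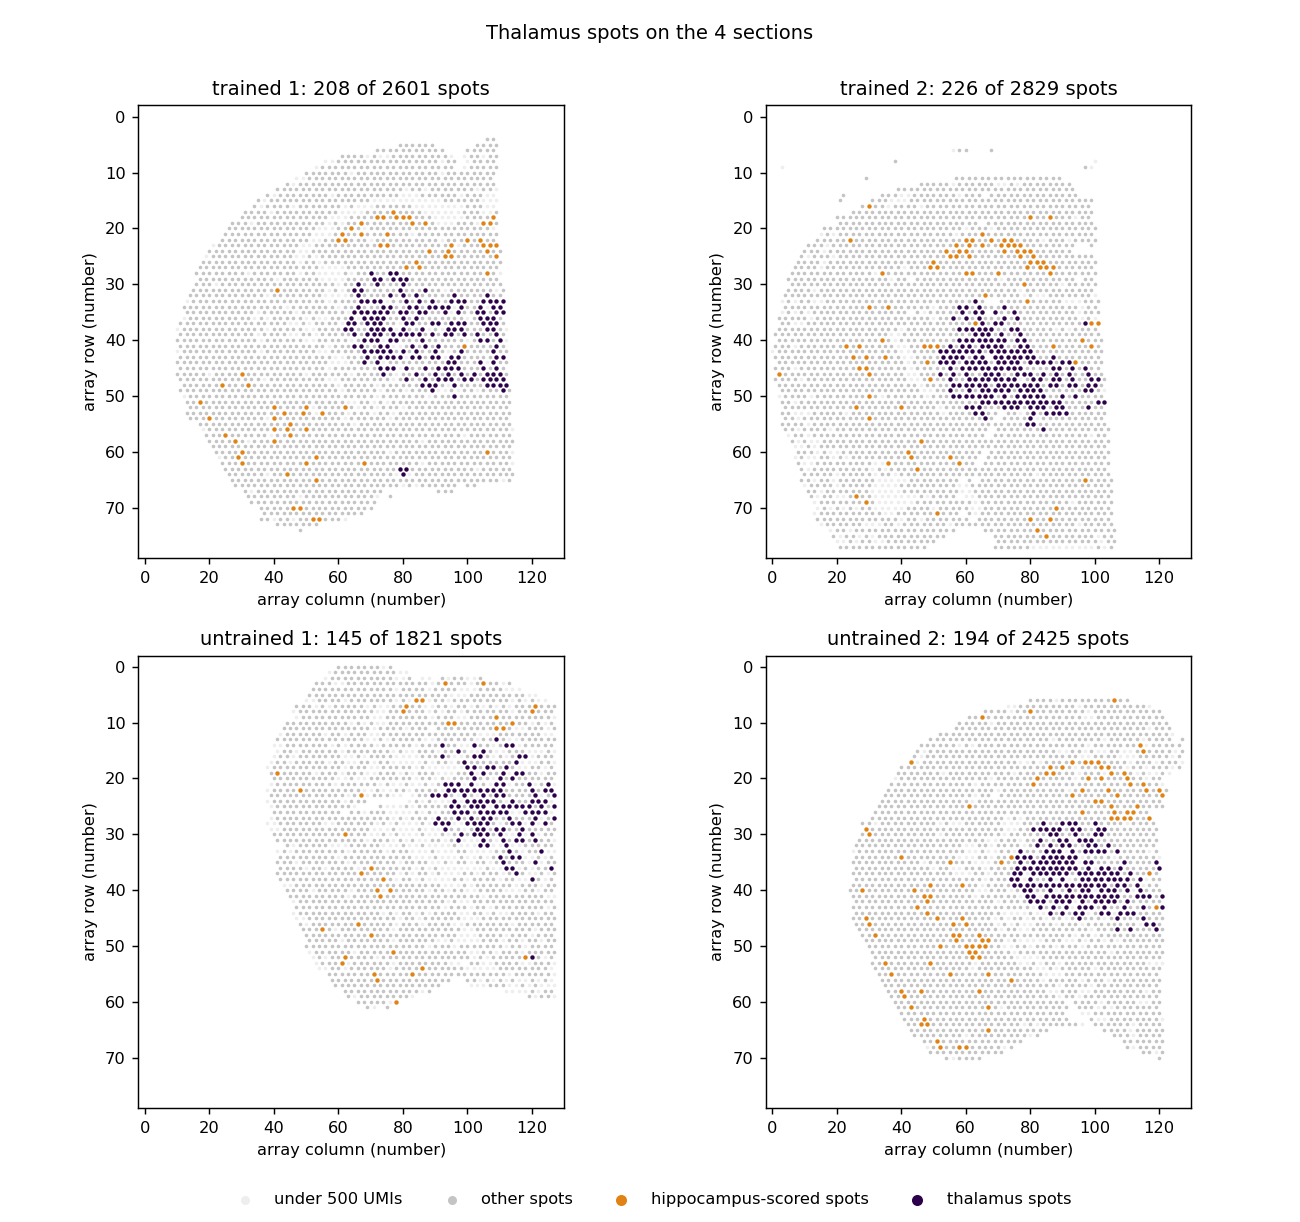
Position of the thalamus spots (purple) and the hippocampus-scored spots (orange) on the capture array of each section, with array column and array row as axes; pale gray spots had under 500 UMIs. The thalamus spots, 145 to 226 per section, lay mostly in 1 region toward the high-column edge of the tissue. Their median row was 39, 46, 25 and 38 (trained 1 and 2, then untrained 1 and 2), against 28, 32, 33 and 37 for the hippocampus-scored spots, which were in part scattered.

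Array position was not used in the choice of spots. Of its 6 neighboring spots, a thalamus spot had on average 2.85, 3.65, 2.48 and 3.51 thalamus spots, whereas another spot had 0.234, 0.197, 0.183 and 0.167. The largest connected patch held 105, 202, 92 and 168 thalamus spots, or 50.5%, 89.4%, 63.4% and 86.6% of them. The spots fell into 18, 13, 25 and 12 patches, and in trained 1 the next in size held 42 and 24 spots. Thalamus spots without any thalamus neighbor numbered 8, 8, 13 and 6. Hypothalamus-scored spots, taken in the same way with 7 hypothalamic genes, lay at a median row of 59, 68, 45 and 58, below the median row of the thalamus spots at 39, 46, 25 and 38. Within the thalamus spots, Prkcd was higher in inner spots (at least 4 thalamus neighbors) than in outer spots (at most 2), at 1717, 2519, 1802 and 2002 against 1335, 1960.4, 1493 and 1440.0 CPM. Tcf7l2 ran the other way, at 397, 429.8, 347 and 492 CPM in inner and 542, 662, 621 and 641 CPM in outer spots. These are again descriptions, as both genes chose the spots.

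Genes outside the rule were described by the ratio of CPM in thalamus spots to CPM in all other spots of the section, again with no test, since the spots had been sorted by their expression. Of 2613 genes with at least 20 UMIs in the thalamus spots of every section, 883 (33.8%) had a ratio above 1 in all 4 sections, and 534 (20.4%) a ratio below 1. The median ratio was 1.05, and 71 genes exceeded 2 in every section. This minimum favors genes that are high in thalamus spots. With a minimum on the mean CPM of both spot groups instead, 669 of 2207 genes (30.3%) were above and 563 (25.5%) below 1 in all sections, with a median of 1.01. The counts and medians of lists below are of the genes with 20 UMIs (called measured) and lean upward for the same reason, so some are also given for all listed genes. Over all 32280 genes without a minimum, with the genes of the rule left out, 1933 were above 1 in all sections and 3893 below. Most of these genes were not measured, and a gene without UMIs in thalamus spots cannot be above 1. Their counts are thus no baseline for lists of expressed genes. The list of other thalamic relay markers had 15 measured genes, of which 14 were above 1 in all sections, with a median ratio of 5.11. Its summed level was 4313, 4833, 3742 and 4327 CPM, or 4.33, 3.60, 3.69 and 5.01 times the other spots, and Adarb1 had the most UMIs of the list. Slc17a6 itself stood at 356, 364, 353 and 331 CPM, with ratios of 3.69, 2.95, 3.47 and 3.90. Calb2, the exception, had ratios of 1.04, 0.491, 1.16 and 1.37.

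Ordered by the section with the lowest ratio, the first gene was Plekhg1, a guanine nucleotide exchange factor, at 238, 336, 262 and 301 CPM and 12.3, 8.21, 10.4 and 18.2 times the other spots. Patj, a scaffold protein of tight junctions, followed with ratios of 6.42, 6.64, 6.73 and 8.04. Among transcription factors, Shox2 had ratios of 8.25, 7.49, 6.05 and 10.3, and Lef1, which like Tcf7l2 binds β-catenin, 6.24, 5.58, 6.37 and 10.2. Zic1, a zinc finger factor, had ratios of 3.99, 5.28, 4.77 and 6.79. Several of the 25 act in signaling. Rgs16, which speeds up the shutdown of G proteins, had ratios of 8.27, 5.28, 4.30 and 10.8, and Ramp3, which modifies receptors of the calcitonin family, 6.88, 4.43, 4.32 and 8.03. The phospholipase Plcb4 had ratios of 4.14 to 6.12, the adrenergic receptor Adra1b 4.13 to 5.15, and the Ras-related GTPase Rasd1 4.39 to 5.52. The metabotropic glutamate receptor Grm4 reached 3.54 to 4.37. Ntng1, a netrin that links axons to their targets, had ratios of 6.60, 4.38, 4.60 and 6.93.

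Pcp4, a small protein that binds calmodulin, stood at 5179, 8658, 4888 and 6101 CPM, with ratios of 3.89, 4.53, 4.63 and 5.50. The RNA-editing enzyme Adarb1 had ratios of 4.10, 4.20, 3.87 and 4.91. Bok, from the list of hippocampal neuron markers, was also high in thalamus spots, at 4.30, 4.96, 4.73 and 5.22 times the other spots. Others of the 25 were Amotl1, Ptpn3, Rab37, Ptpn4, Sh3d19, Pdp1, Vav3, Chst8 and Pitpnc1, with ratios between 3.20 and 11.0. The lowest ratios belonged to neuronal genes that other forebrain regions express more strongly. Nrgn, a postsynaptic protein that binds calmodulin, stood at 213, 170.2, 539 and 234 CPM, or 0.135, 0.149, 0.322 and 0.131 times the other spots. Cplx2, a complexin of synaptic vesicles, had ratios of 0.264, 0.207, 0.209 and 0.237, and Gad1, which makes GABA, 0.335, 0.170, 0.400 and 0.326. Hpcal4, Arpp21, 6330403K07Rik, Psd, Ctxn1 and Ahi1 had ratios of 0.178 to 0.431. Untrained 1 had the highest ratio for Nrgn and Gad1, and was also the section with the fewest UMIs per thalamus spot.

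**Figure D2:**
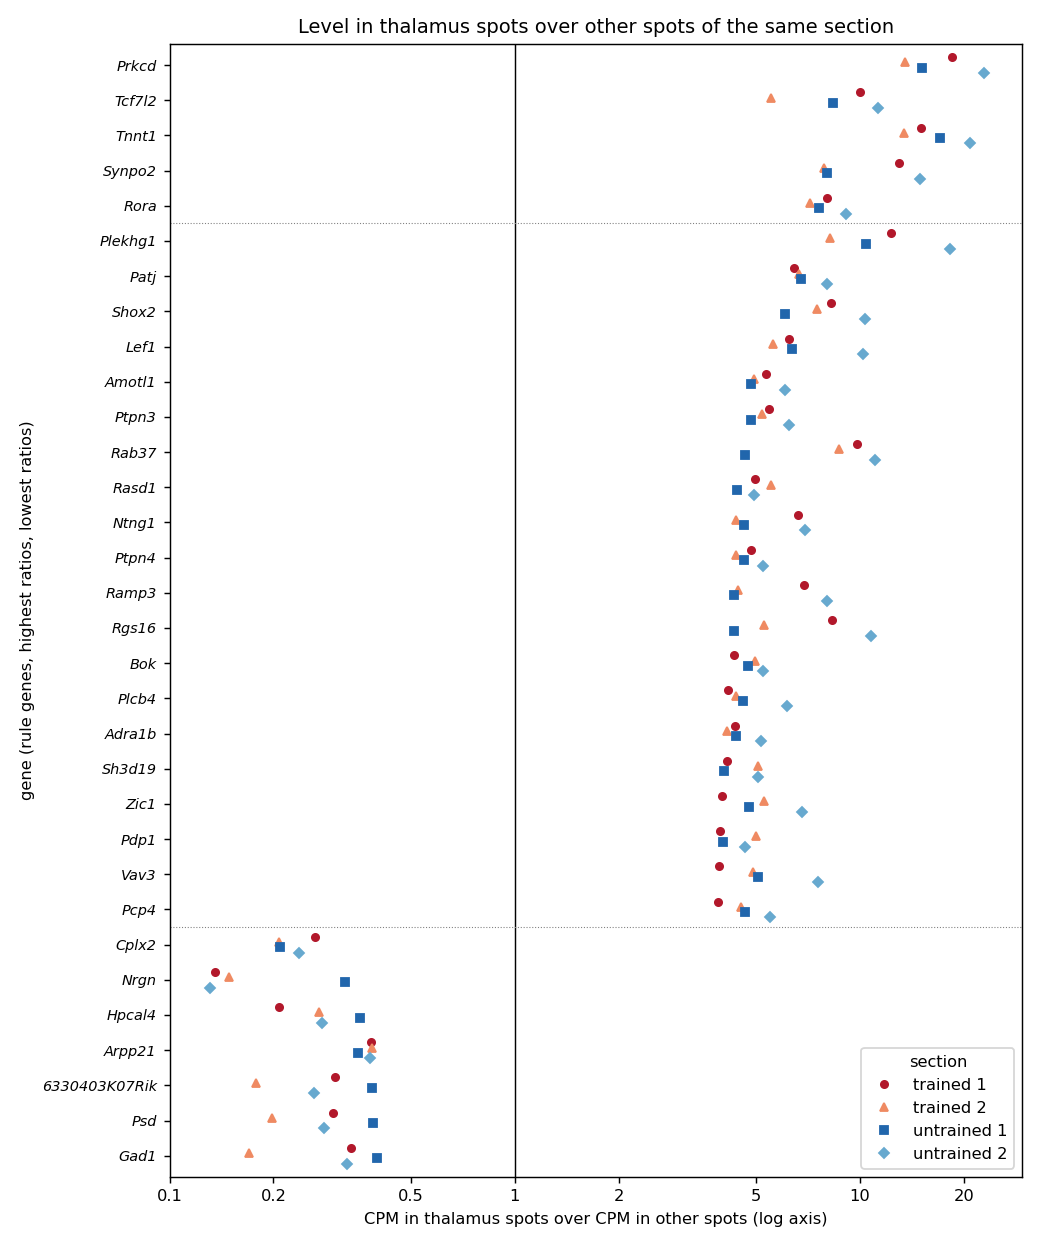
CPM in thalamus spots divided by CPM in the other spots of the same section, on a log axis, for the 5 genes that chose the spots, the first 20 genes with the highest and the first 7 with the lowest ratios; each symbol is 1 section. All 4 sections lie on the same side of 1 for each gene, which follows from how the genes were chosen. The ratios run from 22.8 for Prkcd in untrained 2 down to 0.131 for Nrgn in the same section.

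The summed lists of reticular nucleus, habenula and hypothalamus markers were lower in thalamus spots than in the other spots. The reticular nucleus list summed to 632, 556, 843 and 592 CPM, 0.376, 0.318, 0.540 and 0.411 times the other spots, with Pvalb as its most counted gene. Of the 3 measured genes of the list, Gad1 and Sst were below 1 in all sections, while Pvalb had ratios of 0.938, 0.924, 1.50 and 1.44, and the median ratio was 0.293. At least 3 UMIs of Gad1, Gad2 and Slc32a1 were found in 15, 8, 2 and 4 thalamus spots, or 7.21%, 3.54%, 1.38% and 2.06%, against 29.0%, 32.3%, 15.7% and 20.7% of the other spots. The habenula list summed to 70.9, 52.4, 133 and 63.2 CPM, with Chrnb3 at 0 in all sections (a count of 0 allows up to 5.75, 2.81, 11.4 and 6.32 CPM), and none of its genes had 20 UMIs in every section. The hypothalamus list summed to 680.1, 861, 1074 and 672 CPM, 0.4297, 0.229, 0.489 and 0.405 times the other spots, with Agrp at 0. All 4 of its measured genes (Resp18, Zcchc12, Hap1 and Nnat) were below 1 in every section, with a median of 0.473.

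Of the 31 genes of the channel list, 17 were above 1 in all sections and 6 below, against 1933 and 3893 of all 32280 genes, most of them not measured. The summed list stood at 1.31, 1.55, 1.43 and 1.52 times the other spots. Of the 17 measured, 12 were above and 1 below, with a median of 1.49, against 883 and 534 of all 2613 measured genes. Of 15 with the minimum on both groups 11 were above and 1 below, against 669 and 563 of all 2207 such genes. Cacna1g, the T-type channel of relay neurons, had ratios of 3.70, 3.49, 2.36 and 4.05 at 207, 252, 152 and 202 CPM, whereas Cacna1i, the T-type channel of the reticular nucleus, stood at 9.58, 4.68, 0 and 8.43 CPM with ratios under 1. Of the HCN channels, Hcn2 had ratios of 1.69, 1.82, 2.39 and 2.30 and the sparse Hcn4 4.42, 7.63, 11.3 and 3.69. The fast potassium channel Kcnc2 had ratios of 3.17, 3.72, 3.33 and 4.78, and Scn2a, the only channel below 1 in every section among those measured, 0.653, 0.526, 0.722 and 0.657. Among GABA-A receptor subunits, 3 of 6 measured were above and 2 below 1 in all sections, and of all 12 listed 3 and 5. Gabra4 (2.99, 4.05, 3.54 and 3.61) and Gabrd (2.77, 3.23, 1.80 and 2.80), which form extrasynaptic receptors, were above the other spots. Of the vesicular transporters, Slc17a6 was above 1 in all sections, and Slc17a7, the transporter of cortical and hippocampal pyramidal neurons, had ratios of 0.568, 1.06, 0.612 and 0.624. Slc17a7 still had the most UMIs of the list, at 293, 412, 406 and 394 CPM, above Slc17a6 in all sections but trained 1. Glutamate receptors had 3 above and 3 below 1 of 9 (9 and 6 of all 23), with a median of 1.04.

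Relatives of the 5 genes were counted without the 5 genes themselves. Of 4 measured protein kinase C isoforms, 1 was above and 2 were below 1 in all sections, with a median of 0.951, and Prkcb had ratios of 0.598, 0.686, 0.780 and 0.562 and Prkce 0.824, 0.773, 0.917 and 0.662. Of the ROR and REV-ERB receptors, the 3 measured genes were above 1 in all sections, with a median of 1.50, and Rorb had ratios of 1.89, 2.81, 2.35 and 1.98. Of the Wnt and TCF pathway, 2 of 4 measured genes were above 1 in all sections. Of all 34 listed, 9 were above and 10 below, against 1933 and 3893 of all 32280 genes, most of them not measured. Of the 3 with the minimum on both groups, 1 was above and none below. The gene of β-catenin itself (Ctnnb1) had ratios of 1.55, 1.75, 1.25 and 1.72. Synpo, the relative of Synpo2, stood at 15.3, 14.0, 19.0 and 19.0 CPM with ratios of 0.264 to 0.311. Wif1 of the Wnt list was at 0 in all sections, as were Tnnc2, Tnni2, Tnnt3 and Synpo2l of the troponins and synaptopodins, in which only Tnnt1 and Synpo2 were measured.

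In metabolic and housekeeping lists, 50 of 78 genes of nuclear oxidative phosphorylation were above 1 in all sections and 1 below, with a median of 1.13. Ndufa10, a subunit of complex I, had ratios of 1.42, 1.79, 1.61 and 1.41. Mitochondrially encoded genes had none above and 4 of 12 below, with a median of 0.966. Glycolysis had 9 of 15 above and 2 below, with a median of 1.12. Its lactate dehydrogenase genes parted, with ratios of 1.57, 1.58, 1.72 and 1.77 for Ldhb and 0.515, 0.394, 0.511 and 0.478 for Ldha. Cytoplasmic ribosome genes had 68 of 78 below 1 in all sections and 1 above, with a median of 0.817. Synaptic vesicle genes had 6 of 18 above and 3 below (6 and 6 of all 22, median 0.988), with Cplx1 at 1.82, 2.30, 2.46 and 2.26, opposite to Cplx2. Postsynaptic genes had 6 of 17 above and 7 below (6 and 13 of all 24, median 0.890), from the scaffold Shank3, at ratios of 3.12, 3.72, 2.31 and 3.25, to Nrgn. Calcium-binding proteins had 5 of 15 above and 6 below (5 and 9 of all 18), with a median of 0.972.

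Glial, vascular and regional lists followed no single direction. Of 9 myelin genes, 1 (Mag) was above 1 in all sections, with a list median of 1.17, and the summed list had ratios of 1.29, 0.839, 1.32 and 1.26, so that trained 2 was the exception. Astrocyte genes had 3 of 8 above and 3 below (3 and 4 of all 12, median 1.17), with the GABA transporter Slc6a11 at 2.37, 1.55, 2.00 and 2.51 and the milk fat globule protein Mfge8 at 0.427, 0.340, 0.504 and 0.571. In the endothelial list, 1 of 2 was above 1 in all sections, with a median of 1.16. Both choroid plexus genes measured were below (median 0.496), as was Ptgds of the meninges list (0.737), and of 3 blood genes none was above or below in all sections (median 0.803). Of the cortex lists, the upper layers had 2 of 3 above 1 in all sections, but of all 8 listed 2 were above and 4 below, and the summed list stood at 0.859, 0.809, 0.8696 and 0.825 times the other spots. Layer 6 had no measured gene, but 7 of its 9 genes were below 1 in all sections, with summed ratios of 0.462, 0.252, 0.323 and 0.346. Neither striatum nor ependymal genes reached 20 UMIs in every section. All 8 striatum genes were below 1 in all sections, with summed ratios of 0.273, 0.207, 0.373 and 0.319. Of 6 ependymal genes 2 were below, with summed ratios of 0.289, 0.479, 1.44 and 0.341. The hippocampal neuron list had 2 measured genes, Bok and Cpne7, both above 1. Of all 12 listed, 4 were above and 6 below 1 in all sections, and the summed list, with Bok as its most counted gene, stood at 1.43, 1.85, 1.34 and 1.39 times the other spots. Of the immediate early genes only Jun was measured, with ratios of 1.02, 1.41, 1.01 and 1.43. Of all 15 listed, 10 were below 1 in all sections, against 3893 of all 32280 genes, most of them not measured. With the minimum on both groups the list held only Egr1, which was below 1 in all sections. The summed list stood at 0.491, 0.502, 0.614 and 0.473 times the other spots.

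Because Tcf7l2 and Lef1 bind the core CTTTGA and ROR receptors the half-site AGGTCA, promoters were searched for these letters on either strand. The promoters were the 300 bases around the start of each gene in RefSeq (GRCm38.p6). AGGTCA was present in 18.1% and CTTTGA in 18.2% of all 27025 genes with a promoter. Of the 25 genes with the highest ratios, 20 had a promoter, and AGGTCA was found in 1 of them (5%, Pcp4) and CTTTGA in 2 (10%, Lef1 and Shox2). All 5 genes that chose the spots had a promoter, none with AGGTCA and 1, Prkcd, with CTTTGA. The promoters of Prkcd (chr14:30626159-30626458, minus strand), Lef1 (chr3:131156044-131156343, plus strand) and Pcp4 (chr16:96467356-96467655, plus strand) are shown 5′ to 3′ as examples, with the motif in either orientation in capitals.
Prkcd: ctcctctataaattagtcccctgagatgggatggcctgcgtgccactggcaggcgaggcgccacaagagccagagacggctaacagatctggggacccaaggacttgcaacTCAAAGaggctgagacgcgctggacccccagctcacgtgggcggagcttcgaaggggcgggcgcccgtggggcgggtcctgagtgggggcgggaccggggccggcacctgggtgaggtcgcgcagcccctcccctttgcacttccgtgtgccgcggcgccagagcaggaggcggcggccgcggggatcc
Lef1: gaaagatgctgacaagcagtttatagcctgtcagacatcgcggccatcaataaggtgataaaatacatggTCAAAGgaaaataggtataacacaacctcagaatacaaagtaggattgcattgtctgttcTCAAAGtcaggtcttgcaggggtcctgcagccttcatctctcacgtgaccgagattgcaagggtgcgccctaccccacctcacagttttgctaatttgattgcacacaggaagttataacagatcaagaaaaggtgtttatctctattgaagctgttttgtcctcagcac
Pcp4: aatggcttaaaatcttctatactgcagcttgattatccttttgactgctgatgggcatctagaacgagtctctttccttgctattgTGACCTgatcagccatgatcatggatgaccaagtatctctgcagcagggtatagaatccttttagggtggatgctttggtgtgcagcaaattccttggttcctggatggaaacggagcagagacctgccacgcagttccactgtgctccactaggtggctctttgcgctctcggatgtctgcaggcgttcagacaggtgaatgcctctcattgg

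The thalamus spots were not uniform along the array. After the maps had been seen, the thalamus spots of each section were divided by array column into 3 equal parts, low, middle and high, and the sums of the high and low parts were compared with the section as a block. The spots with the most habenula markers, among all with at least 500 UMIs, lay toward the high-column side except in untrained 1. Of the 20 such spots per section, none of them a thalamus spot, 20, 16, 11 and 16 had a column above the median thalamus spot. Spots with the most reticular markers (Gad1, Gad2, Slc32a1 and Pvalb) lay on the other side, with 0 of 20 above that column in each section, and of these 80 spots 1 was a thalamus spot. They show where the neighbors lay and not what the thalamus spots held. Of 4252 genes tested with edgeR, 329 (7.74%) differed between the sides, 152 (3.57%) higher and 177 (4.16%) lower on the high-column side. The difference had the same direction in all 4 sections for 277 of the 329 genes, and in all but 1 section for the other 52. The count fell to 115 without trained 2 and to 147 in the largest patch alone, of which 141 were among the 329, and DESeq2 called 51. Median UMIs per spot did not move one way: they were 1818, 4594, 1511.5 and 1816.5 in the low part and 2319, 3212, 1509.5 and 1773.5 in the high part.

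The smallest p belonged to Pvalb, the calcium buffer of fast-spiking neurons, which fell from 524, 579.8, 316 and 377 CPM in the low part to 62.8, 78.8, 164 and 92.2 CPM in the high part (log2 difference −2.47 ± 0.18 SE, adjusted p = 1.02e-19, edgeR). The other calcium buffers ran in the opposite direction. Necab1 rose from 44.8, 31.8, 75.9 and 28.5 to 275, 266, 384 and 239.7 CPM (2.80 ± 0.24), and Calb1 from 102, 34.4, 63.3 and 128 to 324, 410.4, 175 and 332 CPM (2.26 ± 0.22). Calb2 rose from 51.2, 37.1, 75.9 and 42.7 to 188, 141, 230.1 and 252 CPM (1.98 ± 0.25). These 4 genes had the same direction in every section, and all were called with each section left out. S100b, the other calcium-binding protein called beside Pcp4, was lower on the high-column side (−0.77), so that 3 of 16 tested genes of that list were higher and 3 lower.

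In the list of T-type calcium, HCN, sodium and potassium channels, 8 of 21 tested genes were lower on the high-column side, 1 was higher and 12 were not called, with a median of −0.38 against −0.00 over all genes tested. Scn4b, a sodium channel subunit of resurgent current, fell from 147, 183, 88.6 and 114 to 48.3, 36.1, 21.9 and 24.6 CPM (−2.06 ± 0.28). Kcnab3, an auxiliary potassium channel subunit, fell from 89.5, 201, 101 and 142 to 43.5, 26.3, 21.9 and 24.6 CPM (−2.28 ± 0.30). Kcnab2 (−0.76), Kcnc1 (−0.82), Scn1a (−0.94) and Kcnc2 (−0.47) were also lower, and Scn2a was higher (1.09). The vesicle proteins Vamp1 (−1.49) and Cplx1 (−0.88), the neurofilaments Nefh (−1.202) and Nefm (−0.99), the sodium pump subunit Atp1b1 (−0.61), the exchanger Slc24a2 (−0.78) and Pcp4 (−0.75) fell as well, each with 4 of 4 sections in that direction. Nsmf (−0.94), Eps8l2 (−2.47) and the ferritin heavy chain Fth1 (−0.50) did the same. In the synaptic vesicle list 4 of 19 were higher and 4 lower.

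Nuclear genes of oxidative phosphorylation were lower on the high-column side in 35 of 83 tested, and 1 was higher, with a list median of −0.37. Cox6c, a subunit of complex IV, fell from 1669, 2589, 1721 and 1658 to 1126, 1619, 1282 and 1149 CPM (−0.59 ± 0.08), and Ndufa4 fell by 0.57 on the log2 scale. Mitochondrially encoded genes did not share this: all 12 had positive values, with a median of 0.22, and 1, mt-Nd2, passed the threshold (0.32). Glycolysis had 5 of 15 lower (median −0.20), among them Ldhb (−0.52). In the myelin list 4 of 10 were lower and none higher (median −0.44), among them Mbp (−0.55), Mobp (−0.59) and Cldn11 (−0.61). Of the ribosome list 2 of 79 were lower, with a median of −0.03. The myelin genes thus moved with the other groups, and their share in those differences was not tested.

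On the high-column side the growth-associated genes Stmn1 (0.84), which destabilizes microtubules, and Gap43 (0.95) were higher, as were Bc1 (0.69), Enc1 (1.35), the pentraxin receptor Nptxr (1.42), the sodium pump regulator Fxyd7 (1.46), Stum (1.76), Slc29a1 (1.77), Stxbp6 (2.45) and Igsf21 (2.57). Of the relay markers, 5 of 19 tested were higher on this side and none lower. Gbx2, a homeobox factor of the developing thalamus, rose from 19.2, 15.9, 12.7 and 7.11 to 67.7, 112, 76.7 and 98.3 CPM (2.65 ± 0.42). Necab1, Calb2 and Ramp3 (0.66) were higher too, and Slc17a6 (0.47) was higher in 3 of 4 sections, at 205, 289, 278 and 349 CPM in the low and 435, 424, 339.7 and 301 CPM in the high part. Slc17a7 fell (−0.51), so that the vesicular glutamate transporters differed in direction. The glutamate receptors Grm5 and Gria1 and the GABA-A subunit Gabra3 were higher, and Gria3 was lower. Markers of neighbors moved too, and their part in these differences was not tested. In the reticular list Pvalb and Gad1 were lower, out of 4 tested, and Zcchc12 and Nnat of the hypothalamus list were higher, out of 7. Of the astrocyte list 2 of 11 were higher (Itih3 and Slc1a3) and 1 lower (Aldoc). Among the genes that chose the spots, Tcf7l2 averaged 374, 471 and 684 CPM and Prkcd 2091, 1964 and 1492 CPM from the low over the middle to the high part, with no test.

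**Figure D3:**
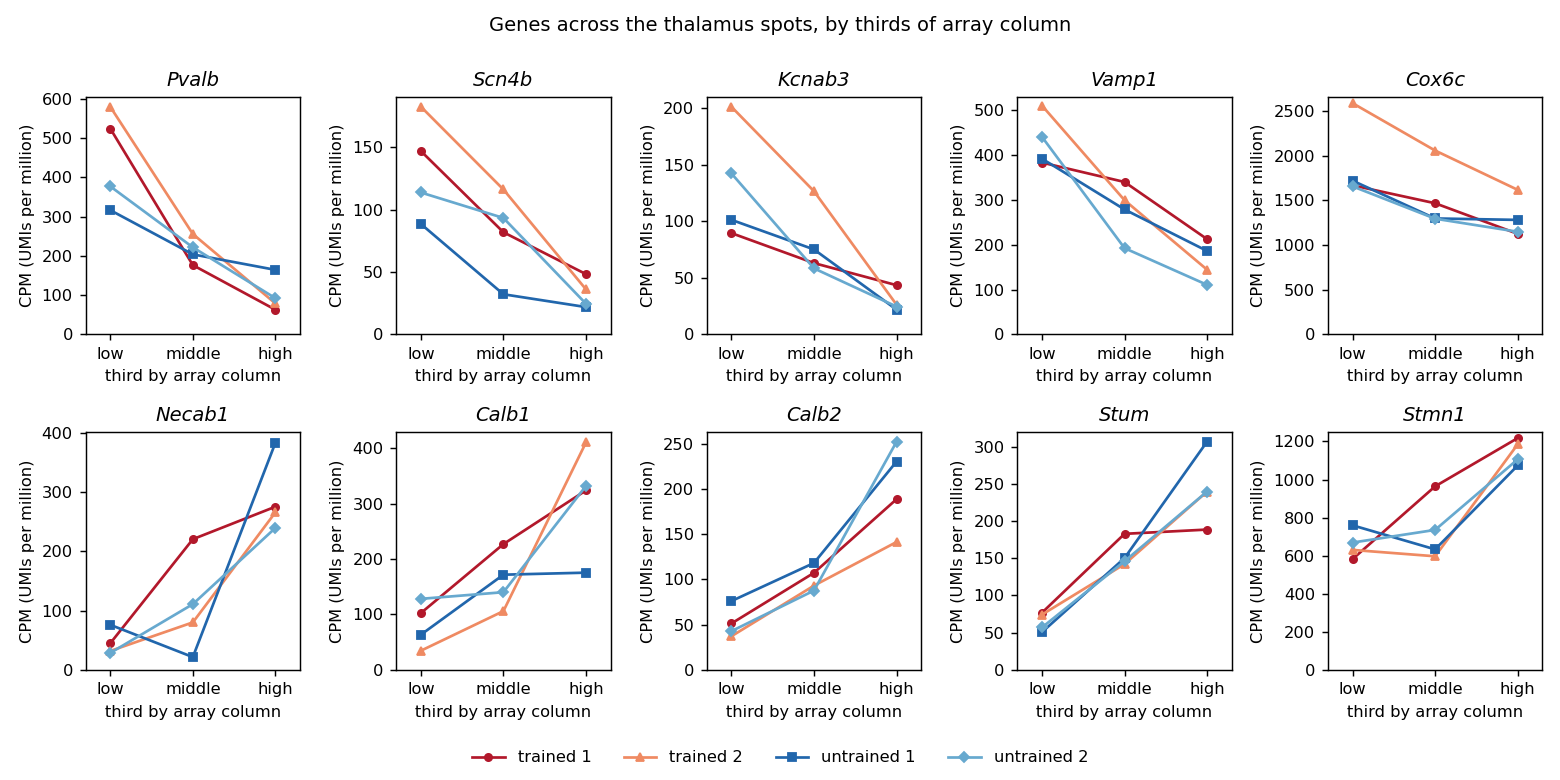
CPM of 10 genes in the low, middle and high parts of the thalamus spots by array column, 1 line per section. Pvalb, Scn4b, Kcnab3, Vamp1 and Cox6c are lower in the high than in the low part in all 4 sections, and Necab1, Calb1, Calb2, Stum and Stmn1 are higher.

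The same division by array row gave little. Of 4090 genes, 3 (0.0733%) differed between the lower and the upper part. Atp2a2, the calcium pump of the endoplasmic reticulum, was higher in the lower part in 4 of 4 sections, at 1480.1, 1619.5, 1202 and 1411 CPM against 1132, 1196, 821 and 995 CPM (0.46 ± 0.08, adjusted p = 0.000251, edgeR). Fth1 was also higher (0.30 ± 0.07), and Ttr, the transthyretin of the choroid plexus, was lower, at 1355, 109, 1189 and 1485 against 2180, 139, 1267 and 2050.4 CPM (−0.47 ± 0.09). The 20 spots of a section with the most choroid plexus markers, none of them a thalamus spot, lay above the median row of the thalamus spots in every section. Atp2a2 lost its call without trained 2 (adjusted p = 0.0730, edgeR) or untrained 2 (0.149), Ttr without trained 1 (0.384) or untrained 2 (0.514), and Fth1 without trained 2 (0.219), untrained 1 (0.285) or untrained 2 (0.843).

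Between trained and untrained mice, 1 of 7639 genes tested in thalamus spots was called (0.0131%). Sst, the neuropeptide somatostatin of inhibitory neurons, was lower in trained mice, at 88.1 and 72.9 CPM against 304 and 166 CPM in untrained mice (log2 difference −1.58 ± 0.26 SE, adjusted p = 0.0306, edgeR). The conditions did not overlap, and untrained 1 was highest. As Sst had the smallest p, the lack of overlap adds nothing to it, and its share over all tested genes is not given here. With a section left out the difference was −2.005 to −1.142, in fits that gave 6 to 84 calls and lean on 1 section in an arm. The call was lost with the other order of the rule (−1.55, adjusted p = 0.0586, edgeR), which called no gene, in sums thinned to equal depth (−1.50, adjusted p = 0.312), in the largest patch (−1.54, 0.102), and with DESeq2 (−1.60, 0.122) and limma voom (−1.52, 0.0525), each of which called no gene. At an unadjusted p under 0.05 there were 448 genes with edgeR, 55 with DESeq2 and 499 with voom. In sums, fewer cells of a type and less RNA per cell cannot be told apart.

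The genes next in order of p had lower values in trained mice as well, without passing the threshold. Hpcal4, a calcium sensor, stood at 47.9 and 50.5 CPM in trained and 144 and 90.6 CPM in untrained mice (−1.25 ± 0.27), and its relative Hpca at 97.7 and 134 against 258 and 188 CPM (−0.95 ± 0.21). Fam107a, an actin-associated protein, stood at 80.5 and 122 against 205 and 196 CPM (−0.997 ± 0.214), and the dendritic protein Ddn at 88.1 and 62.6 against 182 and 114 CPM (−1.03 ± 0.26). For each of these genes the conditions did not overlap, and untrained 1 was the highest section. The genes were chosen by their p, so the lack of overlap adds nothing to it, and its share over all tested genes is not given here. The others were 2900052N01Rik (−1.70), Fam219a (−1.19), Sowaha (−1.97), AY036118 (−2.23) and mt-Nd4l (−0.92), with adjusted p from 0.245 to 0.569 over the 9 genes (edgeR). All 9 were called with a replicate block, which the design gives no reason for. The deeper spots of the trained mice and the section differences in list levels moved with these values, and their part was not tested beyond the alternatives given.

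None of the 9 tested immediate early genes was called with all 4 sections. Arc stood at 46.0 and 21.5 CPM in trained and 30.4 and 16.9 CPM in untrained mice (0.41 ± 0.50), and was found in 22, 22, 8 and 8 thalamus spots. Egr1 (0.05 ± 0.26) and Fos (0.02 ± 0.40) had their lowest level in untrained 1, at 53.1 and 19.0 CPM. Junb (−0.18) and Jun (−0.31) differed by less than their errors or little more, as did Ier2 (0.54 ± 0.48). Dusp1 stood at 111 and 159.9 against 30.4 and 133 CPM (0.52 ± 0.32), on 58, 171, 8 and 63 UMIs. It was called without untrained 2 (2.12, adjusted p = 0.00173, edgeR), where the untrained arm was the 8 UMIs of untrained 1 alone, whereas untrained 2 lay between the trained sections. Nr4a1 stood at 32.6 and 43.9 against 11.4 and 27.4 CPM (0.81 ± 0.43). Homer1, a postsynaptic scaffold gene with an activity-dependent short form, stood at 32.6 and 30.9 against 72.1 and 46.3 CPM (−0.91 ± 0.35). The conditions thus overlapped for Arc, Egr1, Fos, Jun, Junb and Dusp1, but not for Nr4a1, Ier2 and Homer1. Lack of overlap alone has a p of 0.333 by the exact two-sided permutation, and its share over all tested genes is not given here.

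**Figure D4:**
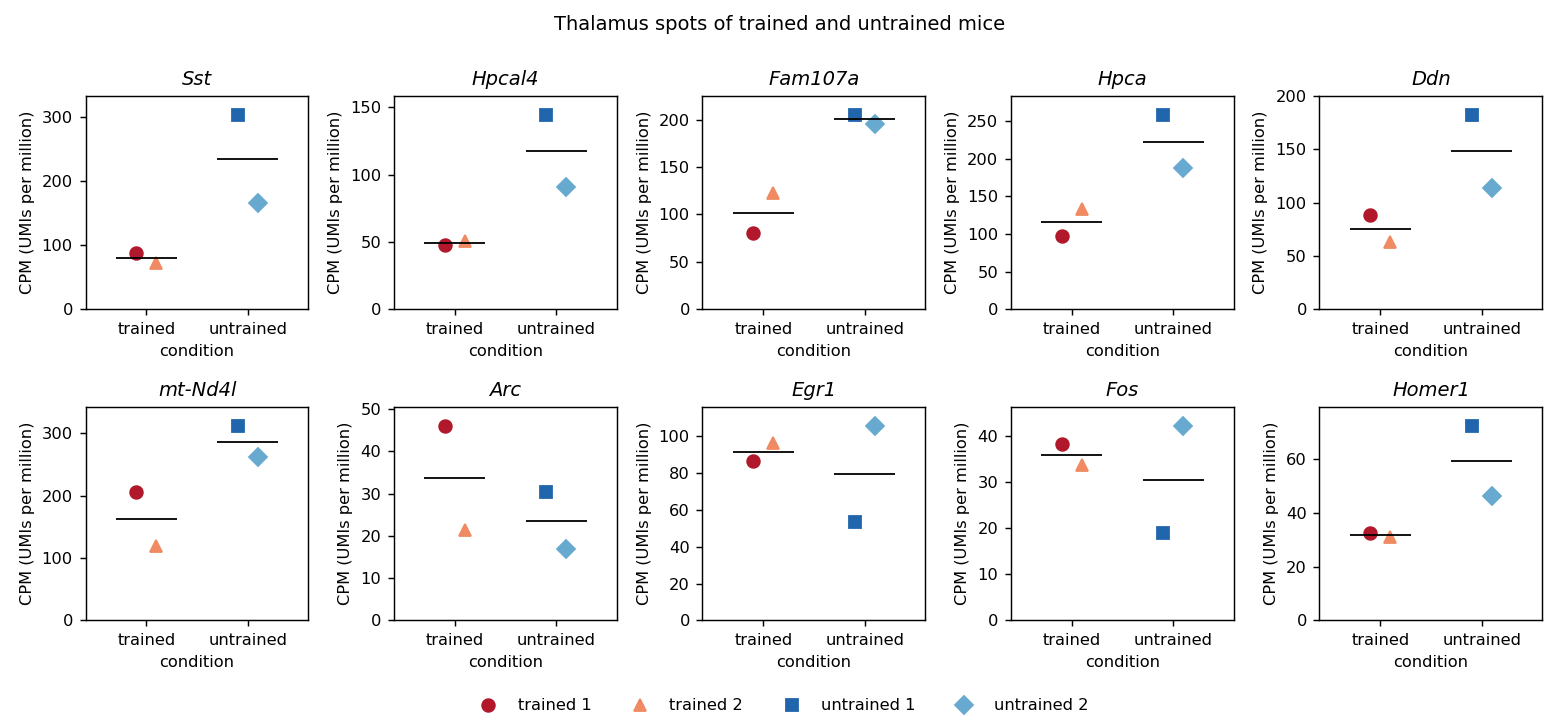
CPM in thalamus spots of the 4 sections for Sst, 5 of the genes next in order of p, and 4 immediate early genes; each symbol is 1 section and each bar the mean of a condition. Trained and untrained sections do not overlap for Sst (88.1 and 72.9 against 304 and 166 CPM), and overlap for Arc, Egr1 and Fos. Sst is shown for its small p, so its lack of overlap adds nothing to that p.

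Sst was the only call in any list. Relay markers had a median of 0.06 over 20 tested genes, against −0.00 over all genes, with 11 above 0. Nuclear oxidative phosphorylation had a median of 0.18 over 87 genes, of which 70 were above 0, and mitochondrially encoded genes a median of −0.50 over 12 genes, all below 0. The share of mitochondrially encoded UMIs was 12.7% and 6.19% in trained and 12.3% and 12.1% in untrained mice, so that trained 2 alone was low. Postsynaptic genes had a median of −0.41 (23 tested, 6 above 0), blood genes −0.84 (4), meninges −0.81 (3), choroid plexus −0.50 (2), the reticular list −0.41 (5), and channels −0.07 (26). The summed blood list stood at 636, 219, 911 and 527 CPM, with Hbb-bs as its most counted gene and Alas2 at 0. The medians of myelin (0.03), glycolysis (0.02), synaptic vesicle (−0.07) and ribosome genes (0.05) were near that of all genes. For the genes that chose the spots, the log2 difference was −0.60 for Tnnt1, −0.14 for Tcf7l2, 0.07 for Prkcd, 0.09 for Synpo2 and 0.17 for Rora. These genes set the score, and its edge differed between sections. Their values are descriptions, and no call was given.

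Whether a training difference in thalamus spots departed from that in the rest of the section was asked with the interaction of spot group and condition. Of 12134 genes, 5 (0.0412%) were called, all with a lower trained-to-untrained ratio in thalamus spots than in the other spots. Sst had a difference of −0.93 ± 0.20 (adjusted p = 0.00992, edgeR), with 483, 376, 608 and 589.8 CPM in the other spots. Cbln1, a secreted organizer of synapses, stood at 34.5, 12.2, 22.8 and 54.8 CPM in thalamus spots and 32.8, 60.1, 27.8 and 18.7 CPM in the others (−2.25 ± 0.42, adjusted p = 0.00103). It rested on 18, 13, 6 and 26 UMIs, with trained 2 and untrained 2 as the extremes. Pmch, the precursor of melanin-concentrating hormone in the lateral hypothalamus, stood at 11.5, 238, 315 and 139 CPM in thalamus spots and 64.9, 1455, 794 and 556 CPM in the others (−0.90 ± 0.19). Trained 1 was low in both spot groups. Bc1 stood at 15105, 3568, 27508 and 19964 CPM against 23089, 17604, 48806 and 34733.5 CPM (−0.60 ± 0.12), and Hbb-bs, a hemoglobin chain, at 308, 125, 452 and 274 against 409.9, 251, 345 and 324 CPM (−0.71 ± 0.17).

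These calls depended on which spots and sections were used. With the other order of the rule no gene was called by edgeR. In the top 12% of spots, 2 of the 5 were among 43 calls. Without trained 1, all 5 were among 18 calls. None of the 5 was called without trained 2, where Bc1 turned to 0.23 and Cbln1 stood at −0.87. Without untrained 1, only Cbln1 was called, and Sst stood at −0.54 and Hbb-bs at −0.43. Without untrained 2, Cbln1 (−0.96) and Bc1 (−0.55) were not called, while Pmch, Sst and Hbb-bs were among the 7 calls. DESeq2 called none, with 70 genes at an unadjusted p under 0.05, and voom called 15, with all 5 among them. Robust estimation lost Bc1 (adjusted p = 0.999, edgeR). The next genes were Hpca (−0.77), Calb2 (−0.91), Cnr1 (−1.80), Ngef (−1.14) and Mfsd12 (2.25), with adjusted p from 0.0876 to 0.260 (edgeR).

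Against hippocampus-scored spots (71, 91, 36 and 105 spots, chosen by 6 hippocampal genes and in part scattered over the section), the training difference was not called as different for any of 8655 genes (0%) with edgeR. There were 345 genes at an unadjusted p under 0.05, and DESeq2 (18) and voom (400) called none either. The smallest p belonged to Hpca (−1.02), Ppp1r1b (−1.32), Foxk2 (1.67), Mfsd12 (3.02), Cnr1 (−2.20), Kitl (1.42), Ank1 (−1.73), Rprml (−1.79), Mbd6 (2.40) and Pcp4l1 (−0.89). Left out in turn, trained 1 gave 46 calls, trained 2 gave 3 and untrained 2 gave 10. The difference between the sides of the thalamus spots was likewise not called as different between trained and untrained mice for any of 4252 genes (0%) with edgeR, with 219 at an unadjusted p under 0.05, and none with DESeq2 (6) or voom (209). Taken over single spots, the rank-sum test called 4222 of 11921 genes (35.4%), of which 4186 were higher in trained mice. It counts the spots of a mouse as independent, and the spots of trained mice were deeper.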

How the data were processed

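Visium sections of 2 trained and 2 untrained mice were analysed. The values the authors deposited are UMI counts per gene and spot, not normalized, for 32285 genes. The methods of the study name Space Ranger v2.0.0 with mm10 after bcl2fastq2 and TrimGalore, the file headers Space Ranger 1.2.2, and the submitters' processing notes Cell Ranger 8, STAR and mm39 (GRCm39), so the build of the counts is unsettled and no coordinates were taken from them. Section images were not used here. In Visium slides a barcode encodes an array position, and 1330 barcodes occurred in all 4 sections. Sections of 1 condition differed by more than sampling noise (chi-square per degree of freedom 5.23 and 1.42).

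Spots were chosen as described, with ties by barcode order. Members and gene lists were chosen with earlier results of these data known. UMI counts were summed per section and tested with edgeR 4.0.16 (filterByExpr, TMM, glmQLFit, glmQLFTest, two-sided) in R 4.3.3, with Benjamini-Hochberg adjustment over all tested genes and 0.05 as the threshold. The interactions and position comparisons had the section as a block. The spread was borrowed across genes, with prior degrees of freedom of 19.2 for training, infinite for the interaction with the other spots, 15.2 for that with hippocampus-scored spots, 88.0 for columns and 224 for rows. The code was run on simulated counts with 200 changed genes. DESeq2 1.42.0, limma 3.58.1 voom, no filter, thinned sums, abundant transcripts left out, other shares of spots, other minimum depths, inner spots, a replicate block, each section left out and a rank-sum test over spots (Python 3.11.15, scipy 1.17.1) were alternatives. Chosen after seeing the data were the position comparisons, the minimum on both spot groups, the other order of the rule, a common score cutoff, the largest patch and robust estimation. Intervals of shares are exact binomial at 95% and cover counting error only.

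The genes named are the 5 that chose the spots, examples from the lists, genes from the 25 highest and 10 lowest ratios among those with at least 20 UMIs in every section, called genes or those among the 10 with the smallest p of each comparison (30 by column), and immediate early genes. Some genes are not named. For a list, the genes with the most UMIs and the largest and smallest ratios were preferred, and other list members were chosen after their values were seen.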

Additional observations from a re-analysis of the deposited data

Results flagged for a closer look

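For 5 genes the difference between trained and untrained mice was not the same in thalamus spots as in the other spots, by the interaction test of edgeR. The trained-to-untrained log2 difference in thalamus spots minus that in the other spots was −2.25 for Cbln1, −0.60 for Bc1, −0.90 for Pmch, −0.93 for Sst and −0.71 for Hbb-bs. No gene of the 5 was called when trained 2 was left out, and Bc1 then stood at 0.23. With the minimum of 3 UMIs applied after the 8% of spots were taken, no gene was called.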

How the results depend on the processing

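The training count of 1 was 0 with DESeq2, voom, thinned sums, the top 5% of spots, inner spots, the other order of the rule, a common score cutoff and the largest patch, 14 without a filter, 74 in the top 12% of spots, 4222 over single spots, and 6 to 84 with a section left out. It was 1 with abundant transcripts left out, with at least 1000 UMIs per spot and with robust estimation. The count of 5 in the interaction with the other spots was 0 with DESeq2, the top 5% and the other order of the rule, 15 with voom, 43 in the top 12% and 0 to 18 with a section left out. That of 0 against hippocampus-scored spots was 1 without a filter, 13 in the top 12% and 0 to 46 with a section left out. The 329 genes by column were 51 with DESeq2, 147 in the largest patch and 115 to 302 with a section left out. The 3 by row were 0 with DESeq2, 6 with voom, 5 without a filter, 8 in the largest patch and 0 to 3 with a section left out. The summed ratio of relay markers averaged 4.16 ± 0.655 (SD, n = 4) and was 3.27 where spots were thinned to 500 UMIs before scoring. Apart from thinning and fewer samples or genes, the cause was not tested.

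A replicate block gave 26 training calls. In the interaction with the other spots it stood in place of the section block, 2 changes at once, and gave 0 calls. The samples share only a number: deviations of sections with the same number correlated at 0.0542 over 7639 genes.

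Signs turned for some immediate early genes and for 1 called gene. Arc was −0.48 in the top 12% and −0.13 to 1.06 with a section left out. Egr1 was −0.35 in the top 12%, −0.00194 with the common cutoff, −0.10 in the largest patch and −0.26 to 0.72 with a section left out. Fos was −0.0504 with voom, −0.27 in the top 12%, −0.26 in the largest patch and −0.32 to 0.82 with a section left out. Junb ranged from −0.48 to 0.32 and Dusp1 from −0.00812 to 2.12 with a section left out, and the Bc1 interaction from −1.44 to 0.23. Of the other values of named genes under the alternatives, 746 were labeled the same, 60 stronger and 59 weaker.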
